A study of Mus musculus with 24 samples.

Results

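The genes described here are 9 of the 54532 in the deposited count table. They were taken by name: S100a8, S100a9 and Ltf, which encode proteins stored in or carried by neutrophils, Cxcr2 and Csf3r, which encode receptors of these cells, and Cxcl1, Cxcl2, Cxcl3 and Cxcl5, which encode their attractants. RNA was sequenced from 24 mouse pancreatic tumours in 4 groups of 6, all collected on day 24, namely controls that received PBS, a buffered saline, and the groups labelled GEM, IGEL and LIGEL. The labels do not expand the 3 abbreviations, and the series title speaks of losartan, an angiotensin receptor blocker, given ahead of a nanocarrier. Strain, age, tumour line and dose are not given in the sources used here, and the labels do not say whether each sample was a separate animal, so p-values measure the spread between samples, which may be partly technical.

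Neutrophils are short-lived white blood cells that leave the bone marrow under granulocyte colony-stimulating factor, whose receptor is encoded by Csf3r. CXC chemokines with a glutamate-leucine-arginine motif, made by stroma, macrophages and epithelium, bind the receptor CXCR2 on the neutrophil and draw it into tissue. Mature neutrophils hold large amounts of calprotectin, the pair of S100A8 and S100A9, and keep the iron-binding protein lactoferrin, the product of Ltf, in their secondary granules. None of these genes is strictly limited to neutrophils, as monocytes also make S100A8, S100A9 and the G-CSF receptor, and several epithelia make lactoferrin. In pancreatic tumours the CXCR2 axis is known for bringing myeloid cells into the stroma.

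The 4 attractant genes lie in 1 cluster on mouse chromosome 5 (build mm10, all on the plus strand), within 147 kb. Cxcl5 (ENSMUSG00000029371) spans chr5:90759360-90761624, Cxcl3 (ENSMUSG00000029379) chr5:90786103-90789600, Cxcl1 (ENSMUSG00000029380) chr5:90891241-90893115 and Cxcl2 (ENSMUSG00000058427) chr5:90903871-90905938. S100a8 (ENSMUSG00000056054, chr3:90668978-90670035, plus strand) and S100a9 (ENSMUSG00000056071, chr3:90692632-90695721, minus strand) are neighbours on chromosome 3. Csf3r (ENSMUSG00000028859) is at chr4:126024550-126044440, Cxcr2 (ENSMUSG00000026180) at chr1:74153989-74161246 and Ltf (ENSMUSG00000032496) at chr9:111019271-111042767, all on the plus strand. All 9 are annotated as protein coding.

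The promoters of Cxcl1, Cxcl2 and Cxcl3 are printed because these attractants had the same highest library and shared 1 element. The windows run from 250 bases before to 50 bases after the RefSeq start on GRCm38.p6, plus strand, at chr5:90890995-90891294, chr5:90903649-90903948 and chr5:90785851-90786150. Capitals mark the match to the NF-kappaB consensus, searched by its published degenerate form on both strands.
Cxcl1: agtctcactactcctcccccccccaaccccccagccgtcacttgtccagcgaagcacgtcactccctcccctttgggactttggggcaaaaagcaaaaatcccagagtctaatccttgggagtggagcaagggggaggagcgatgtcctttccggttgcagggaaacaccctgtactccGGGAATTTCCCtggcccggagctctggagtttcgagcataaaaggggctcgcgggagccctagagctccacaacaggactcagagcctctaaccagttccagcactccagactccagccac
Cxcl2: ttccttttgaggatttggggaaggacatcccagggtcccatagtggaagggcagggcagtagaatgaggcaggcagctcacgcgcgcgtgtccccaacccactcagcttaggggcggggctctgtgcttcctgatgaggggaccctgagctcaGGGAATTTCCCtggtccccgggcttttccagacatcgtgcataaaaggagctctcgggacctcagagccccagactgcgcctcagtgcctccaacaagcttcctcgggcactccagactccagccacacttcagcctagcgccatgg
Cxcl3: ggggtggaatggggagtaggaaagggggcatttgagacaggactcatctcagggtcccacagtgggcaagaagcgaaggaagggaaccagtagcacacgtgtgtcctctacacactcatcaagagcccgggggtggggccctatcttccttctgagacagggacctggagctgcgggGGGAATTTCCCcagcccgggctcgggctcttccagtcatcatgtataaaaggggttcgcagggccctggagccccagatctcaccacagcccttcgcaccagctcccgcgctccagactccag
The same 11 letters stood in all 3 windows, starting 71 bases before the start in Cxcl1, 97 in Cxcl2 and 73 in Cxcl3, where the matches on the plus and the minus strand overlap. Of the 8 members with a RefSeq promoter, Csf3r also held a match, on the minus strand 129 bases before its start, and S100a8, S100a9, Ltf and Cxcr2 held none in this window. Over all promoters of this length, 2779 of 32851 windows (8.46%) held the consensus. These matches describe letters and were not tested as binding sites.

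Libraries held 27066563 to 40521434 counts. Levels are given as CPM, counts scaled to a common library total after edgeR's TMM correction for composition. Libraries are named by group and replicate number, so PBS6 is replicate 6 of the control group. PBS5 stood apart, with pancreatic acinar markers summing to 436000 CPM against 48.7 to 127000 in the other libraries and the lowest leukocyte marker sum, 161 CPM. Sample titles say muscle while the tissue label says pancreatic tumour; the 4 skeletal muscle markers summed to at most 1.82 CPM outside IGEL4, which had 93.8. A list of 7 neutrophil markers (Ly6g, Camp, Ngp, Mpo, Elane, Retnlg, Mmp8) summed to a median of 4.03 CPM over the 24 libraries and ranged from 0.946 in PBS5 to 28.4 in IGEL5. Elane was at 0 counts in 13 libraries, Ngp in 11, Mpo in 6 and Ly6g in 1. Macrophage and monocyte markers (9 genes) summed to 493 to 1820 CPM. In bulk tissue, fewer cells of a type and less RNA per cell cannot be told apart.

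Calprotectin transcripts had medians over the 24 libraries of 1.1 CPM for S100a8 and 3.1 CPM for S100a9. For both, IGEL5, PBS6 and GEM2 were the 3 highest libraries. S100a8, the smaller calprotectin chain, had a lowest, median and highest level of 0.54, 1.3 and 9.26 CPM for PBS, 0.707, 2.45 and 5.5 for GEM, 0.714, 1.21 and 9.91 for IGEL and 0.348, 0.565 and 1.78 for LIGEL. The 2 highest libraries were IGEL5 and PBS6, and the next in each of their groups were at 1.81 and 2.21 CPM. LIGEL held the 3 lowest libraries of all, yet its range overlapped that of every other group. S100a9, the partner chain, had 1.08, 3.29 and 15.3 CPM for PBS, 1.9, 3.84 and 12.2 for GEM, 1.74, 3.33 and 15.9 for IGEL and 0.377, 1.67 and 3.1 for LIGEL. The same 3 libraries led as for S100a8, in the order IGEL5, PBS6 and GEM2, and all 6 LIGEL libraries lay below the PBS median. The per-length ratio of S100a8 to S100a9 ran from 0.175 to 1.03 with a median of 0.336, and S100a8 was the higher of the 2 per length only in LIGEL3.

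Ltf, the lactoferrin gene, had 0.54, 1.12 and 1.77 CPM (lowest, median, highest) for PBS, 0.497, 0.835 and 2.7 for GEM, 0.828, 1.75 and 10.7 for IGEL and 0.482, 0.763 and 0.861 for LIGEL. IGEL5 alone stood at 10.7 CPM, with IGEL6 next at 3.55 CPM, and the 6 LIGEL libraries lay close together at 0.723 ± 0.151 CPM (SD, n = 6). IGEL5 was also the library with the most Ngp, a secondary granule gene, at 12.4 CPM, the most Mpo at 2.87 CPM and the most Elane at 1.09 CPM, both genes of primary granules that are transcribed in marrow precursors. PBS6, the second highest library for calprotectin, had Ltf at 0.721 CPM, Ngp at 0.111 CPM, Mpo at 0.0832 CPM and Elane at 0 counts (up to 0.0832 CPM, the level of 3 counts). Camp was also at 0 counts in PBS6, but not all neutrophil genes were low there. Prtn3 was at 1.94 CPM in PBS6 and 2.15 in IGEL5, Cd177 at 2.05 and 2.93, and Ly6g at 1.72 and 1.14. GEM2, the third highest library for calprotectin at 5.5 CPM of S100a8 and 12.2 of S100a9, had Ltf at 0.514 CPM, Ngp at 0 counts and Mpo at 0.36 CPM.

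**Figure D1:**
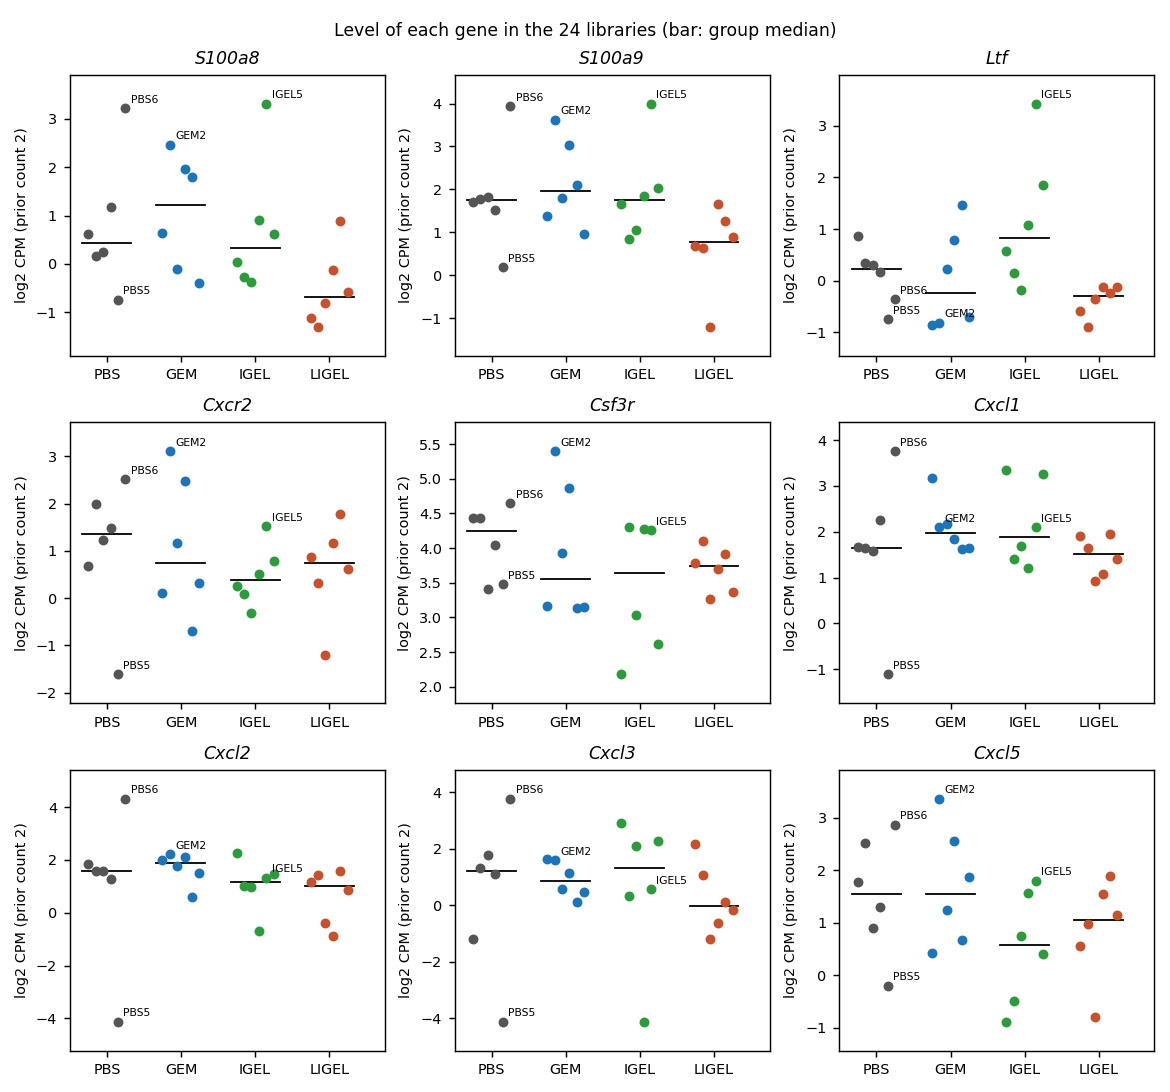
Level of each of the 9 genes in the 24 libraries, as log2 CPM with a prior count of 2 (vertical axis), by group (horizontal axis). Points are libraries and bars are group medians; S100a8 and S100a9 show 1 high library each in PBS (PBS6, 9.26 and 15.3 CPM) and IGEL (IGEL5, 9.91 and 15.9 CPM), and the groups overlap for all 9 genes.

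The receptors differed from calprotectin in which library led. Cxcr2, the receptor of the CXC attractants, had a lowest, median and highest level of 0.27, 2.52 and 5.63 CPM for PBS, 0.564, 1.68 and 8.58 for GEM, 0.742, 1.25 and 2.82 for IGEL and 0.377, 1.62 and 3.35 for LIGEL. GEM2 was highest and PBS5, with 4 counts, lowest. Csf3r, the G-CSF receptor, was the most abundant member by CPM, with 10.6, 19 and 25.1 for PBS, 8.73, 12 and 42.1 for GEM, 4.48, 13.6 and 19.8 for IGEL and 9.58, 13.4 and 17.1 for LIGEL. GEM2 led again, at 42.1 CPM against 28.9 CPM in GEM4, and the spread of LIGEL (SD 2.85 CPM) was smaller than that of GEM (SD 13.8 CPM). GEM2 was at 0.514 CPM for Ltf, the third lowest of the 24.

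Among the attractants, Cxcl1, Cxcl2 and Cxcl3 were led by PBS6. Cxcl1 had a lowest, median and highest level of 0.405, 3.09 and 13.5 CPM for PBS, 3.01, 3.89 and 8.98 for GEM, 2.24, 3.69 and 10.2 for IGEL and 1.84, 2.81 and 3.77 for LIGEL. Besides PBS6, the libraries IGEL1, IGEL6 and GEM1 were high, at 10.2, 9.55 and 8.98 CPM, while all other libraries were at 4.69 CPM or less. Cxcl2, which like Cxcl1 is induced by inflammatory signals, had 0, 2.92 and 19.9 CPM for PBS, 1.44, 3.66 and 4.58 for GEM, 0.561, 2.2 and 4.76 for IGEL and 0.484, 1.97 and 2.89 for LIGEL. PBS6 was the single high library for Cxcl2, with IGEL1 next at 4.76 CPM. PBS5 had 0 counts, which allows up to 0.203 CPM at 3 counts. Cxcl3 had 0, 2.29 and 13.7 CPM for PBS, 1.01, 1.8 and 3.04 for GEM, 0, 2.81 and 7.51 for IGEL and 0.377, 0.932 and 4.46 for LIGEL. The zeros were PBS5 and IGEL4, where 3 counts would be 0.203 and 0.0934 CPM.

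Cxcl5, an attractant made mainly by epithelium and other non-leukocytes, did not share that order. Its lowest, median and highest levels were 0.811, 2.91 and 7.24 CPM for PBS, 1.29, 2.96 and 10.3 for GEM, 0.481, 1.45 and 3.43 for IGEL and 0.518, 2.02 and 3.64 for LIGEL. The 3 highest libraries were GEM2, PBS6 and GEM4, as for Cxcr2, and IGEL1, the second highest library for Cxcl1, Cxcl2 and Cxcl3, was the lowest for Cxcl5.

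Per kilobase of gene length, the median level over the 24 libraries put S100a9 first at 5.95 CPM per kb, then Csf3r at 4.01, Cxcl1 at 1.66, S100a8 at 1.58, Cxcl2 at 1.3, Cxcl5 at 1.2, Cxcr2 at 0.524, Cxcl3 at 0.497 and Ltf at 0.276. Neighbours in that order lay closer together than the larger of their SDs over libraries, except Csf3r and Cxcl1, whose SDs were 2.32 and 1.64 CPM per kb.

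Counted over the 9 genes, PBS6 was among the 3 highest libraries for 8, the exception being Ltf, and GEM2 for 6. At the other end, LIGEL3 was among the 3 lowest for 6 and PBS5 for 5. PBS6 also had the highest summed squamous epithelium markers, 28.5 CPM against a PBS median of 4.39 CPM, of which Sprr1a, a cornified envelope gene also induced by stress, made up 27.9 CPM while the keratin genes Krt5 and Krt6a were at 0 counts in all 6 PBS libraries, and of the PBS libraries the most Il1b, the inflammatory cytokine, at 29.7 CPM, and the most Csf3, the gene of G-CSF, at 3.3 CPM. The part of these in the PBS6 levels was not tested.

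**Figure D2:**
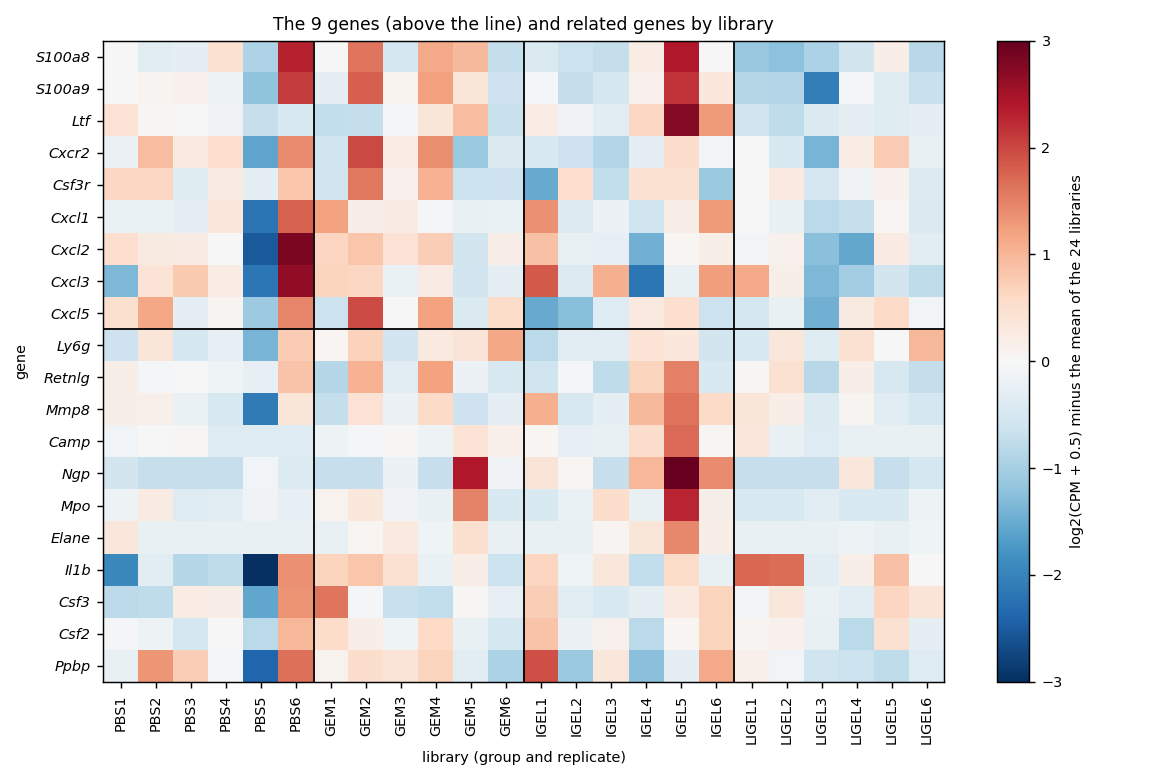
Heat map of the 9 genes (rows above the line) and related genes (rows below it) in the 24 libraries (columns, by group). Colour is log2 of CPM plus 0.5, minus each gene's mean over the 24 libraries. The related genes are Ly6g, Retnlg, Mmp8, Camp, Ngp, Mpo, Elane, Il1b, Csf3, Csf2 and Ppbp. PBS6 is high for 8 of the 9 genes, IGEL5 for S100a8, S100a9 and Ltf, and GEM2 for Csf3r, Cxcr2 and Cxcl5, while PBS5 and LIGEL3 are low for most of the 9.

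In LIGEL against PBS, all 9 genes had negative log2 fold changes, with a median of -0.78, against -0.03 and 46.5% positive over all 19253 genes tested. None was called by edgeR's quasi-likelihood test at an adjusted p under 0.05, where 0.0% of all genes were called; DESeq2 called 1229 genes here, and none of the 9. Of the 9 members, 3 had an unadjusted p under 0.05, all with lower means in LIGEL, where 14.2% of all genes were lower and 6.28% higher at that level. S100a8 was at 0.754 ± 0.534 CPM in LIGEL and 2.61 ± 3.3 in PBS (SD), a log2 fold change of -1.79 ± 0.75 (SE, edgeR adjusted p = 0.185). S100a9 was at 1.78 ± 0.911 CPM in LIGEL and 4.89 ± 5.19 in PBS, with -1.47 ± 0.63 (edgeR adjusted p = 0.199). Cxcl2 was at 1.78 ± 0.997 and 5.27 ± 7.25 CPM, with -1.57 ± 0.71 (edgeR adjusted p = 0.218).

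These 3 values depended on which PBS library was left out. Without PBS6 the log2 fold changes in LIGEL against PBS were -0.77 for S100a8, -0.66 for S100a9 and -0.42 for Cxcl2, and none of the 3 had an unadjusted edgeR p under 0.05. Without PBS5 they were -2.0, -1.68 and -1.84, and Cxcl1 was -0.95, all with an unadjusted p under 0.05. The other 6 members lay between -1.25 ± 0.92 for Cxcl3 and -0.44 ± 0.41 for Csf3r. Without PBS6 they lay between -0.68 for Ltf, for which PBS6 is not a high library, and -0.02 for Cxcl1.

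In IGEL against PBS, 3 members had positive and 6 negative fold changes, with a median of -0.21, against -0.02 and 47.1% positive over all genes. None was called by edgeR, and again 0.0% of all genes were. Ltf was the only member with an unadjusted p under 0.05, at 3.28 ± 3.79 CPM in IGEL and 1.08 ± 0.428 in PBS, a log2 fold change of 1.59 ± 0.54 (edgeR adjusted p = 0.306). At that level 5.79% of all genes were higher and 9.25% lower. Without IGEL5 the Ltf fold change was 0.71, and its unadjusted p was no longer under 0.05. Calprotectin means were close, with log2 fold changes of -0.01 ± 0.72 for S100a8 and 0.05 ± 0.62 for S100a9, values that rested on 1 high library in each group. Without IGEL5 they were -1.20 and -0.76, and without PBS6 they were 1.01 and 0.85. Cxcl5, at 1.73 ± 1.2 CPM against 3.56 ± 2.45, had -1.05 ± 0.58 (edgeR adjusted p = 0.375), Cxcl2 had -1.14 ± 0.7 (0.01 without PBS6) and Cxcr2 -0.91 ± 0.62. Without PBS5 Cxcl2 was -1.40 and Cxcl5 -1.26, and without IGEL5 Cxcl5 was -1.37, each then with an unadjusted edgeR p under 0.05. Without PBS6 Cxcl5 was -0.72 and Cxcr2 -0.57, neither with an unadjusted edgeR p under 0.05.

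In GEM against PBS, 6 members had positive and 3 negative fold changes, with a median of 0.08, against -0.02 and 46.5% positive over all genes. No member had an edgeR p under 0.05, adjusted or not, where 0.0% of all genes were called and 1.92% were higher and 2.89% lower at the unadjusted level. The values ran from -0.89 ± 0.91 for Cxcl3 to 0.22 ± 0.57 for Cxcl5, with each standard error larger than the size of its fold change. The 3 comparisons share the PBS libraries, so PBS5 and PBS6 enter each of them.

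**Figure D3:**
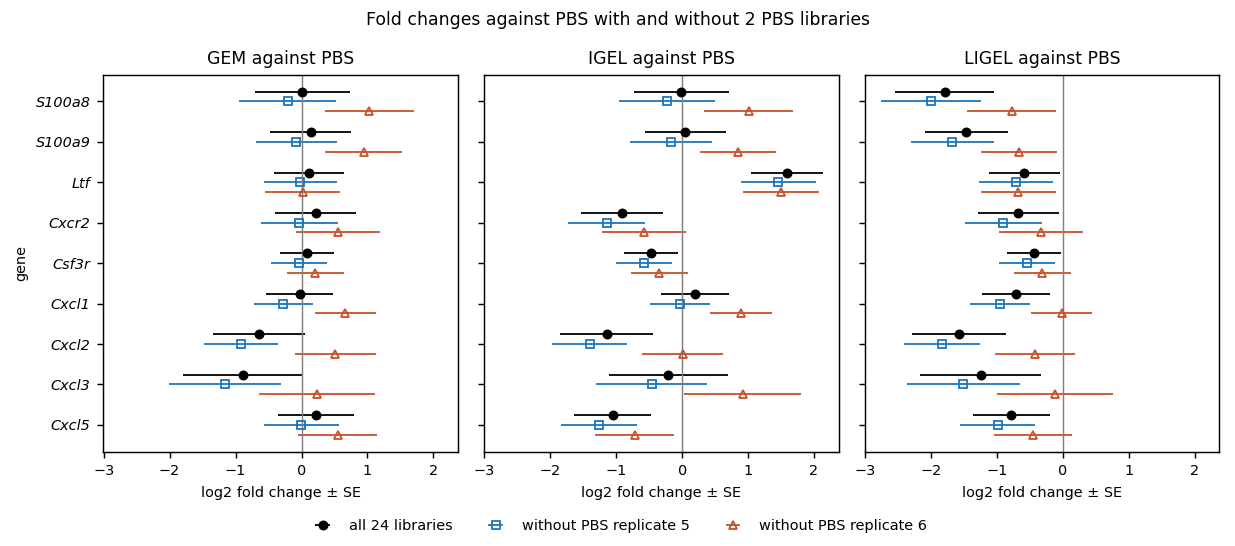
Log2 fold change of each of the 9 genes (vertical axis) in GEM, IGEL and LIGEL against PBS (panels), from edgeR with all 24 libraries (circles), without PBS5 (squares) and without PBS6 (triangles); bars are standard errors. With all libraries, the 9 values in LIGEL are below 0, from -1.79 for S100a8 to -0.44 for Csf3r, and Ltf in IGEL is the highest value at 1.59; without PBS6 the values of S100a8, S100a9 and Cxcl1 to Cxcl3 move to the right in each panel.

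Comparing the treated groups with each other leaves PBS5 and PBS6 out of the means. In LIGEL against GEM all 9 members had negative fold changes, with a median of -0.89, against -0.01 and 47.1% positive over all genes. Of the 9, 2 had an unadjusted edgeR p under 0.05, where 2.33% of all genes were lower, 0.831% were higher and 0.0% were called after adjustment. They were S100a9 at -1.61 ± 0.63 (edgeR adjusted p = 0.999) and S100a8 at -1.8 ± 0.75 (edgeR adjusted p = 0.999). All 6 LIGEL libraries lay below the GEM median for both genes, and the ranges overlapped. Without GEM2 the fold changes were -1.19 and -1.45, and neither passed 0.05 before adjustment.

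In LIGEL against IGEL, 3 members had positive and 6 negative fold changes, with a median of -0.91, against -0.02 and 45.1% positive over all genes. The positive ones were Cxcl5 at 0.27 ± 0.58, Cxcr2 at 0.24 ± 0.62 and Csf3r at 0.04 ± 0.41. Before adjustment 3 members passed 0.05, all with lower means in LIGEL, where 0.831% of all genes were lower, 0.426% were higher and 0.0% were called. Ltf was at -2.18 ± 0.55 (edgeR adjusted p = 1.0), with all 6 LIGEL libraries below the IGEL median, and at -1.30, with the unadjusted p still under 0.05, without IGEL5. S100a9 was at -1.51 ± 0.63 (edgeR adjusted p = 1.0) and S100a8 at -1.78 ± 0.75 (edgeR adjusted p = 1.0). Without IGEL5 these were -0.71 and -0.59, and neither had an unadjusted p under 0.05.

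In IGEL against GEM, Ltf was at 1.48 ± 0.54 (edgeR adjusted p = 1.0) and Cxcl5 at -1.27 ± 0.59 (edgeR adjusted p = 1.0). At the unadjusted level 0.878% of all genes were higher and 0.706% lower, and 0.0% were called. The Ltf value was 0.60 without IGEL5, and that of Cxcl5 was -0.76 without GEM2, and neither then had an unadjusted p under 0.05. In all 6 comparisons the ranges of the groups overlapped for all 9 genes.

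A list of 24 further neutrophil genes, of which 20 passed the low-count filter, had none called in any comparison. Relative to PBS its median log2 fold change was 0.14 for GEM, 0.16 for IGEL and 0.07 for LIGEL. At an unadjusted edgeR p under 0.05, 1 was higher in GEM, 4 in IGEL and 1 in LIGEL, and 1 was lower, in LIGEL. Of all genes, 1.92% were higher in GEM, 5.79% in IGEL and 6.28% in LIGEL at that level, and 14.2% were lower in LIGEL. Ly6g, the surface marker used to sort mouse neutrophils, had 0.713 ± 0.627 CPM for PBS, 1.27 ± 0.708 for GEM, 0.688 ± 0.409 for IGEL and 1.06 ± 0.616 for LIGEL. Its log2 fold changes against PBS were 0.8 ± 0.59, -0.08 ± 0.59 and 0.53 ± 0.59, with edgeR adjusted p-values of 0.804, 0.958 and 0.619. So the marker was no lower in LIGEL than in PBS by its mean, while S100a8 and S100a9 had lower means. In LIGEL against GEM the Ly6g value was -0.27 ± 0.58, and in LIGEL against IGEL 0.62 ± 0.59. Of the 20 listed neutrophil genes tested, 11 had positive and 9 negative fold changes in LIGEL against PBS. The difference between Ly6g and the calprotectin genes was not tested.

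Ngp and Mpo were highest in IGEL5 and GEM5. Ngp had 0 to 4 counts in every PBS library, so that its fold change depends on the prior count, and its log2 fold change was 5.46 in IGEL (edgeR adjusted p = 0.306) and 3.57 in GEM (edgeR adjusted p = 0.804). The highest libraries were IGEL5 at 12.4 CPM and GEM5 at 3.83 CPM; without GEM5 the GEM value was 0.64, and without IGEL5 the IGEL value was 3.58. Mpo, the myeloperoxidase gene, was at 2.34 in IGEL (edgeR adjusted p = 0.319), at 0.62 without IGEL5, and at 1.59 in GEM (edgeR adjusted p = 0.804), at 0.43 without GEM5. In LIGEL, Mpo was at 0 counts in 4 of 6 libraries and 4 counts at most, a log2 fold change of -2.03 (edgeR adjusted p = 0.371). Elane, the neutrophil elastase gene, was not tested because of its low counts; its means were 0.0393 CPM for PBS, 0.11 for GEM, 0.27 for IGEL and 0.00959 for LIGEL. In LIGEL, Mmp9, a gelatinase gene also made by macrophages, was at 1.19 (edgeR adjusted p = 0.17), with 501 ± 241 CPM against 219 ± 155 in PBS. Stfa2l1, a stefin gene, was at -2.17 (edgeR adjusted p = 0.207) from levels of 0.0709 ± 0.091 and 0.314 ± 0.224 CPM.

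The second list held 25 genes of attraction and adhesion (other chemokines, colony-stimulating factors, inflammatory cytokines, decoy receptors, selectins, integrins), of which 24 were tested and none called. Relative to PBS the medians were 0.2 for GEM, 0.27 for IGEL and 0.1 for LIGEL, and at an unadjusted edgeR p under 0.05, 3 were higher in IGEL, 3 higher and 1 lower in LIGEL, and 0 in GEM. The shares over all genes were 5.79% higher in IGEL, and 6.28% higher and 14.2% lower in LIGEL. Itgal, the alpha chain of the leukocyte integrin LFA-1, was at 0.78 in IGEL (edgeR adjusted p = 0.306) and 0.67 in LIGEL (edgeR adjusted p = 0.17). Selp, the endothelial P-selectin on which leukocytes roll, was at 0.71 in IGEL (edgeR adjusted p = 0.306). Ackr1, a chemokine-binding receptor of venules, was at -1.96 in LIGEL (edgeR adjusted p = 0.214) and at -1.20 without PBS5, which had the most Ackr1. In GEM the smallest p-values were those of Ackr2, a chemokine scavenger, at 0.69 (edgeR adjusted p = 0.804), and Il17ra, an interleukin-17 receptor chain, at 0.22 (edgeR adjusted p = 0.804), or 0.08 without PBS5.

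Csf3, the ligand of the Csf3r product, differed little between group means, at 1.08 ± 1.2 CPM for PBS, 1.26 ± 1.39 for GEM, 1.19 ± 0.621 for IGEL and 1.17 ± 0.452 for LIGEL, with log2 fold changes of 0.2 ± 0.66, 0.12 ± 0.66 and 0.1 ± 0.66. Il1b had 8.99 ± 10.6 CPM in PBS and 21.4 ± 13.2 in LIGEL, a log2 fold change of 1.25 ± 0.56 (edgeR adjusted p = 0.216), with LIGEL1 and LIGEL2 at 38.2 and 37 CPM, both among the libraries with columns A1 to A3 described next. All 6 LIGEL libraries were above the PBS median of 6.18 CPM, as were all 6 of GEM and all 6 of IGEL. Without PBS6 the LIGEL value was 2.13. Without PBS5, which had 9 counts of Il1b, it was 1.0, with an unadjusted edgeR p of 0.0599. The log2 fold change of Il1b had the opposite sign to that of all 4 attractants in the same comparison. In GEM and IGEL, Il1b was at 0.63 ± 0.56 and 0.47 ± 0.56.

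Of the 24 libraries, 6 have columns numbered A1 to A3 in the count table, each number with 2 suffixes, while the numbers of the other 18 come with 1 suffix; the labels do not explain this. They are GEM1, GEM2, GEM3, IGEL1, LIGEL1 and LIGEL2, and none is from PBS. With a term for this difference within groups, edgeR called 18 genes (0.0935%), and no member. The largest member values, as log2 of these libraries over the rest, were 1.498 ± 0.727 for Cxcl3 (edgeR adjusted p = 0.354), -1.01 ± 0.467 for Ltf (edgeR adjusted p = 0.337) and 0.797 ± 0.429 for Cxcl1 (edgeR adjusted p = 0.403).

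Across the 24 libraries, 8 pairs of members were correlated on log2 CPM, with two-sided permutation tests of 100000 resamples and Benjamini-Hochberg adjustment over the 8 pairs; 1e-05 is the smallest p these can give. The libraries come from 4 groups and share depth and composition. S100a8 and S100a9 had r = 0.89 (p = 1e-05, adjusted 2e-05) and rho = 0.87 (p = 1e-05, adjusted 8e-05), and r = 0.81 without IGEL5 and PBS6. Within the 18 libraries outside A1 to A3 r was 0.89, and within the 6 it was 0.95. Cxcr2 and Cxcl5, 1 of its ligands, had r = 0.82 (p = 3e-05, adjusted 4.8e-05) and rho = 0.80 (p = 3e-05, adjusted 0.00012), r = 0.82 without GEM2 and IGEL1, and r = 0.83 and 0.89 within the 18 and the 6 libraries.

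S100a9 and Cxcr2 had r = 0.75 (p = 1e-05, adjusted 2e-05) and rho = 0.62 (p = 0.0015, adjusted 0.002), with r = 0.74 without LIGEL3 and IGEL5, 0.73 in the 18 and 0.85 in the 6. Cxcr2 and Csf3r had r = 0.66 (p = 0.00047, adjusted 0.000627) and rho = 0.63 (p = 0.00131, adjusted 0.002), with r = 0.61 without GEM2 and PBS5, 0.62 in the 18 and 0.83 in the 6. The weakest pairs were those of S100a9 with Csf3r and with Ltf. S100a9 and Csf3r had r = 0.48 (p = 0.0169, adjusted 0.0193) and rho = 0.35 (p = 0.0963, adjusted 0.0963), with r = 0.48 without LIGEL3 and IGEL5, 0.49 in the 18 and 0.52 in the 6. S100a9 and Ltf had r = 0.48 (p = 0.0206, adjusted 0.0206) and rho = 0.59 (p = 0.00325, adjusted 0.00371). Without LIGEL3 and IGEL5 r was 0.26 and rho 0.54, so the linear relation rests on those libraries while the rank relation moved little. In the 18 libraries r was 0.59 and rho 0.68, and in the 6 r was 0.03 and rho 0.49.

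Cxcl1 and Cxcl2 had r = 0.87 (p = 1e-05, adjusted 2e-05) and rho = 0.74 (p = 5e-05, adjusted 0.000133), with r = 0.66 without PBS5 and PBS6, 0.89 in the 18 and 0.71 in the 6. Cxcl2 and Cxcl3 had r = 0.82 (p = 1e-05, adjusted 2e-05) and rho = 0.64 (p = 0.00113, adjusted 0.002), with r = 0.69 without PBS5 and PBS6, 0.82 in the 18 and 0.27 in the 6. The 6 hold neither PBS5 nor PBS6 and are too few to tell a weak from a strong relation. After each group's mean was removed, r over the 8 pairs lay between 0.45 for S100a9 with Ltf and 0.89 for Cxcl1 with Cxcl2.

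**Figure D4:**
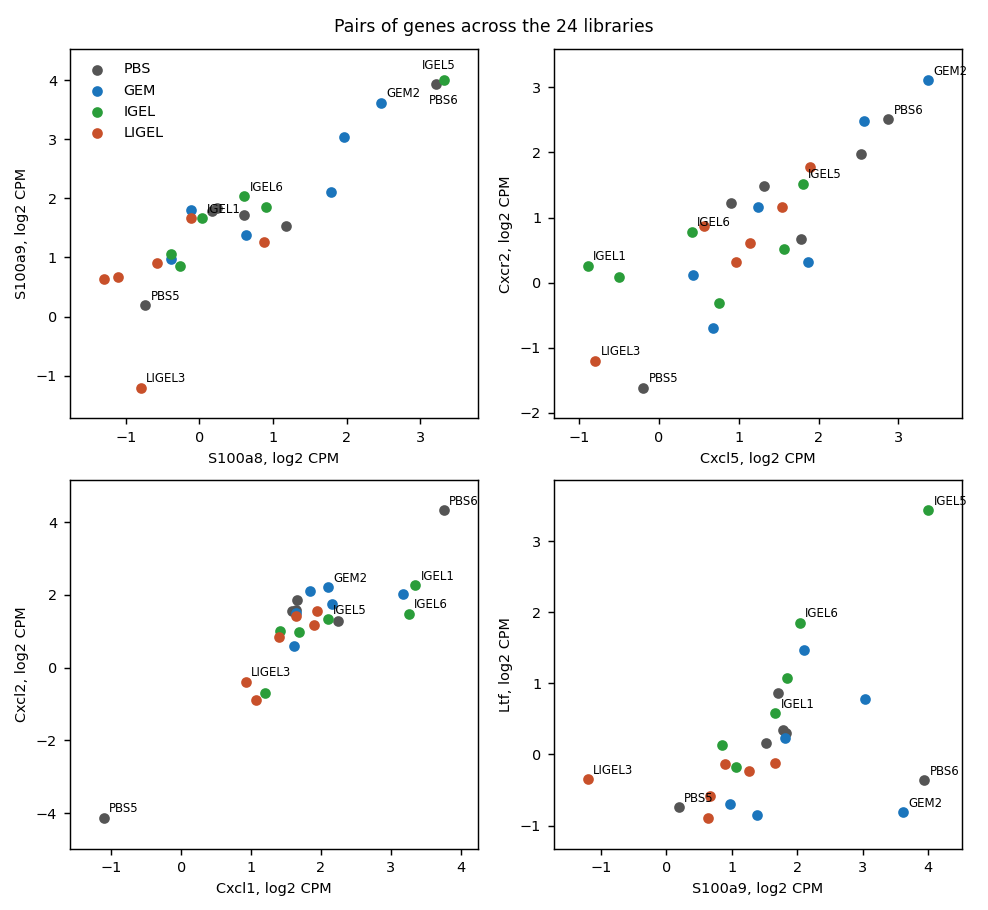
Log2 CPM of pairs of members in the 24 libraries, 1 point per library coloured by group. S100a8 and S100a9 lie along 1 line with IGEL5 and PBS6 at its top (r = 0.89), and PBS5 and PBS6 mark the ends for Cxcl1 and Cxcl2 (r = 0.87, and 0.66 without them).

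For each member, the 3 genes with the highest Spearman rho over the 24 libraries were listed from 15006 genes screened, as a description. Next to S100a8 stood S100a9 (rho 0.87), followed by Ltc4s, the leukotriene C4 synthase gene (0.71), and Tnfsf8 (0.71), and next to S100a9 stood S100a8, Dtl (0.68) and the matrix proteoglycan gene Vcan (0.68). Csf3r was closest to 3 genes of myeloid cells, Ptafr, the receptor of platelet-activating factor (0.91), Cd84 (0.87) and Slc11a1, a phagosomal metal transporter (0.86). Cxcr2 was closest to Trim37 (0.81), Cxcl5 (0.8) and Ltb4r1, a leukotriene B4 receptor (0.8).

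Of the attractants, Cxcl1 was closest to Csf2, the GM-CSF gene (0.85), Ankrd55 (0.81) and Radil (0.8). Cxcl2 was closest to the haem oxygenase gene Hmox1 (0.89), Gla (0.83) and Tmem144 (0.81). Cxcl3 was closest to Ppbp, another CXCR2 ligand gene (0.87), Abcb1b (0.86) and Adam8 (0.85). Cxcl5 was closest to Aldh1a2, Vcan and Cxcl14 (0.85 each), and Ltf to Slf2 (0.75), Pggt1b (0.74) and Wwc2 (0.71). None of the 3 for Ltf is a neutrophil granule gene. Leaving out PBS5 moved none of these values by more than 0.05.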

How the data were processed

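Total RNA of 24 tumour samples was sequenced on Illumina libraries. Per the submitters' processing notes, reads were handled with HISAT2 and featureCounts of Subread on build mm10; versions, annotation release, strandedness and the treatment of reads with several matches are not given in the sources used here, so reads shared by the similar Cxcl genes or by overlapping genes on the other strand cannot be told apart. The authors deposited raw counts per gene with coordinates; 53462 genes, and all 9 members, have the same coordinates in GENCODE mouse release 21.

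Counts were fitted in R 4.3.3 with edgeR 4.0.16 (TMM scaling, filterByExpr with minimum count 10 and minimum total 15, leaving 19253 genes and removing 0.0666% of counts, robust quasi-likelihood F test, 1 model over 4 groups, Benjamini-Hochberg over all genes). The step was run on simulated counts with the same fixed dispersion for all genes and no outlying library. That run does not give its power or error rate for genes as variable as the members. Log2 CPM used a prior count of 2. The level of 3 counts covers counting error only, while the SDs and SEs include the spread between libraries. Alternatives used DESeq2 1.42.0, limma 3.58.1 (voom), other scalings, filters, covariates and left-out libraries. The members and gene lists were chosen with earlier results of these data known. Named genes are all members, 5 fixed genes (Ly6g, Mpo, Elane, Csf3, Il1b), the 2 smallest p-values of each list against PBS, and the 3 most similar genes per member; Ngp and others beside IGEL5 and PBS6 were named after their values were seen. Promoters are RefSeq's on GRCm38.p6.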

Additional observations from a re-analysis of the deposited data

Results flagged for a closer look

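In 10 of the 36 groups of 6 libraries tested (9 genes in 4 groups), 1 library lay far from the others, by a gap to its neighbour that passed Dixon's critical value at 95%. That value gives about 1 in 20 groups by chance for normally distributed values, and CPM are skewed towards high values; on log2 CPM, 2 of the 10 still passed (S100a8 for IGEL5 and Cxcl1 for GEM1), and 3 other groups passed by their lowest library (S100a9 for LIGEL3, Cxcl2 for PBS5 and Cxcl3 for IGEL4). PBS6 stood alone in its group for S100a8 at 9.26 CPM, with the next library at 2.21 CPM, for S100a9 at 15.3 CPM, for Cxcl1 at 13.5 CPM, for Cxcl2 at 19.9 CPM and for Cxcl3 at 13.7 CPM. IGEL5 stood alone for S100a8 at 9.91 CPM, for S100a9 at 15.9 CPM and for Ltf at 10.7 CPM, with the next library at 1.81, 4.06 and 3.55 CPM. GEM1 stood alone for Cxcl1 at 8.98 CPM, with the next at 4.4 CPM, and LIGEL5 for S100a8 at 1.78 CPM, with the next at 0.861 CPM. PBS6 and IGEL5 gave 8 of the 10, and since the genes are correlated these are not independent tests.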

How the results depend on the processing

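No member passed an adjusted p of 0.05 in any alternative: of 415 values under other settings 379 kept their direction, and of 408 values with 1 library left out 361 did, with the smallest adjusted p 0.0848 and 0.133. The numbers of all genes called moved from 0 to 46 (IGEL) and 1229 (LIGEL) with DESeq2, and to 66 (GEM), 384 (IGEL) and 728 (LIGEL) with voom and sample weights. They were 7 (LIGEL) with an acinar covariate, 119, 692 and 521 without PBS1 and PBS5, and 17 (IGEL) and 170 (LIGEL) without PBS5 and PBS6, the last pair chosen after seeing the data. Leaving out 1 library gave 0 to 18 (IGEL against PBS) and 0 to 173 (LIGEL against PBS), the highest values without PBS5, and 2 (LIGEL) without PBS4. With edgeR and all libraries, 926, 2896 and 3945 genes had an unadjusted p under 0.05 in GEM, IGEL and LIGEL against PBS, and 305, 608 and 242 in IGEL against GEM, LIGEL against GEM and LIGEL against IGEL; DESeq2 gave 1265, 3446, 4387, 406, 860 and 309. Stfa2l1 in LIGEL passed the threshold with voom (-3.04). Library totals without a composition factor moved the median over all genes for LIGEL relative to PBS from -0.03 to 0.10 on the log2 scale.

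Signs reversed in the following values. In GEM against PBS, S100a8 was -0.0115 with DESeq2, -0.0146 with RLE factors, -0.0138 with no filter, -0.0118 with only the 2 groups, -0.0051 without A1 to A3 and -0.0237 with voom. Voom also gave -0.11 for Ltf, -0.60 for Cxcr2, -0.16 for Csf3r, 0.012 for Cxcl1, -0.13 for Cxcl5 and -0.0104 for Il17ra in GEM, and -0.0586 for Cxcl1 in IGEL. Without A1 to A3, GEM gave -0.0726 for S100a9, -0.20 for Cxcr2 and -0.22 for Csf3r, and IGEL 0.11 for S100a8 and -0.12 for Cxcl1; with a term for A1 to A3, IGEL gave 0.052 and -0.0107. Library totals gave 0.0086 for S100a8 in IGEL, and the acinar covariate -0.31 for Cxcl1 in IGEL. Without PBS1 and PBS5, GEM gave -0.39 for S100a8, -0.23 for S100a9, -0.22 for Cxcr2, -0.0733 for Cxcl5 and -0.009 for Il17ra, and IGEL -0.34 for S100a9 and -0.21 for Cxcl1. Without PBS5 and PBS6, GEM gave -0.15 for Ltf, 0.39 for Cxcl1 and 0.19 for Cxcl2, and IGEL 0.82 for S100a8 and 0.61 for Cxcl3. The causes were not tested.

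Leaving out 1 library gave, in GEM, -0.34 to 1.03 for S100a8, -0.28 to 0.94 for S100a9, -0.32 to 0.31 for Ltf, -0.39 to 0.55 for Cxcr2, -0.33 to 0.23 for Csf3r, -0.34 to 0.66 for Cxcl1, -0.91 to 0.51 for Cxcl2, -1.16 to 0.24 for Cxcl3 and -0.29 to 0.55 for Cxcl5. In IGEL it gave -1.20 to 1.01 for S100a8, -0.76 to 0.85 for S100a9, -0.12 to 0.89 for Cxcl1, -1.49 to 0.0095 for Cxcl2 and -0.69 to 0.92 for Cxcl3. Pearson correlations moved to 0.81 for S100a8 with S100a9, 0.26 for S100a9 with Ltf (rho 0.54), 0.66 for Cxcl1 with Cxcl2 and 0.69 for Cxcl2 with Cxcl3 without the 2 farthest libraries, and to 0.76 and 0.75 for the last pairs without PBS5.

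Replicate numbers did not pair the samples: same-numbered samples of different groups had a mean correlation of -0.017 over 36 pairs, against 0.004 for other numbers, and 5 of 24 samples correlated best with their own number. With the number as a replicate block 0 genes were called in each comparison, and reversed values were -0.27 for Ltf, -0.15 for Csf3r and 0.17 for Cxcl1 in GEM and -0.11 for S100a9 in IGEL.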
